A study of Drosophila melanogaster with 6 samples.

Results

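COPI is the protein coat that buds vesicles from the Golgi and returns escaped proteins and membrane to the endoplasmic reticulum (ER). The 9 genes described here are its 7 coat subunits (alphaCOP, beta'COP, epsilonCOP, betaCOP, gammaCOP, deltaCOP and zetaCOP), garz and KdelR. They were chosen by name for their place in this pathway, out of 13946 protein-coding genes on the chromosome arms of Drosophila melanogaster. Earlier results of these data were known when they were chosen, which limits every comparison with all genes below. Every peak overlapping a gene's span, or the 1 kb on either side, was counted for that gene.

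The peaks mark binding of CrebA, a bZIP transcription factor known for raising the expression of secretory pathway genes in the fly, mapped by ChIP-seq in embryos of stages 11 to 16. Oregon R embryos, a wild-type strain, gave endogenous CrebA from all tissues, precipitated with an antiserum to CrebA. The other 2 groups had the genotypes fkh-GAL4::UAS-CrebA-GFP and sage-GAL4::UAS-CrebA-GFP, in which a Gal4 driver switches on CrebA fused to GFP, pulled down through its GFP tag. Each driver works in more than the salivary gland, but the gland is the sole tissue in which the series text says they overlap. No mutation of the resident CrebA gene is named for them, so untagged CrebA may be present beside the fusion protein. Antibody, CrebA form and tissue all differ between Oregon R and the driver groups and cannot be told apart. Each group had 1 library with 1 input, so no value below has a replicate check and no test between groups was possible.

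Membrane recruitment of COPI starts with an Arf GTPase, which an exchange factor loads with GTP at the Golgi. The coat then arrives as a whole complex with an adaptor-like part, which binds Arf and some cargo, and an outer part that shapes the vesicle. In secretory cells such as those of the salivary gland, heavy outward traffic is matched by this return path. The KDEL receptor uses it to bring back soluble ER chaperones that carry a short retrieval signal at their end.

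The authors' lists held 14039 peaks for Oregon R, 6464 for fkh-Gal4 and 7916 for sage-Gal4. Each peak carries the authors' fold enrichment, the ratio of signal at its summit (its highest point) to the caller's local background. Its median over all peaks was 1.88, 1.74 and 1.85 in these lists, and its maximum 3.98, 3.51 and 3.76. How deeply each library was sequenced is unknown. Folds and ranks are therefore given within a list, rank 1 being the highest fold, and a rank is also given as a percent of the list's length. Gene ends are called lower or higher by coordinate on dm6, because the gene table used here gives no strand.

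All 9 genes held at least 1 peak in every list. Of all protein-coding genes, 67.8% held one in Oregon R, 33.6% in fkh-Gal4, 43.3% in sage-Gal4 and 31.3% in all 3 lists. The shares for all genes show that a peak in the window is common, most of all in Oregon R, and the members are longer (median 3481 bp) than protein-coding genes in general (2161 bp). With gene spans alone as windows, 58.6% of all genes had an Oregon R peak, 24.7% an fkh-Gal4 peak and 31.9% a sage-Gal4 peak, and all 9 members still had one in each list.

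By their medians, the highest peaks of the 9 genes stood nearer the top of their lists than those of all genes with a peak. The median rank of a member's highest peak was 6.64% of the list in Oregon R, 1.73% in fkh-Gal4 and 6.06% in sage-Gal4. For all protein-coding genes with a peak, the same medians were 25.3%, 30.0% and 33.3%. The epsilonCOP peak in fkh-Gal4, at 36.2%, stood lower than that list's median over all genes. The 1000 highest peaks by fold reached 6 of the 9 genes in Oregon R, against 9.95% of all genes. In fkh-Gal4 they reached 8 of 9 (all genes 10.1%) and in sage-Gal4 5 of 9 (all genes 9.23%). The same 5 genes, betaCOP, gammaCOP, deltaCOP, zetaCOP and garz, were in the highest 1000 of all 3 lists, which held for 2.16% of all genes.

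A threshold on the caller's own confidence gave a similar picture. A peak reaching a −log10 q of 10 or more was present at all 9 genes in Oregon R (all genes 50.7%) and in sage-Gal4 (14.6%), and at 8 of 9 in fkh-Gal4 (11.0%). All 3 lists had such a peak at 8 of 9 genes, against 8.26% of all genes. The exception was epsilonCOP, whose fkh-Gal4 peak had a −log10 q of 8.46.

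**Figure D1:**
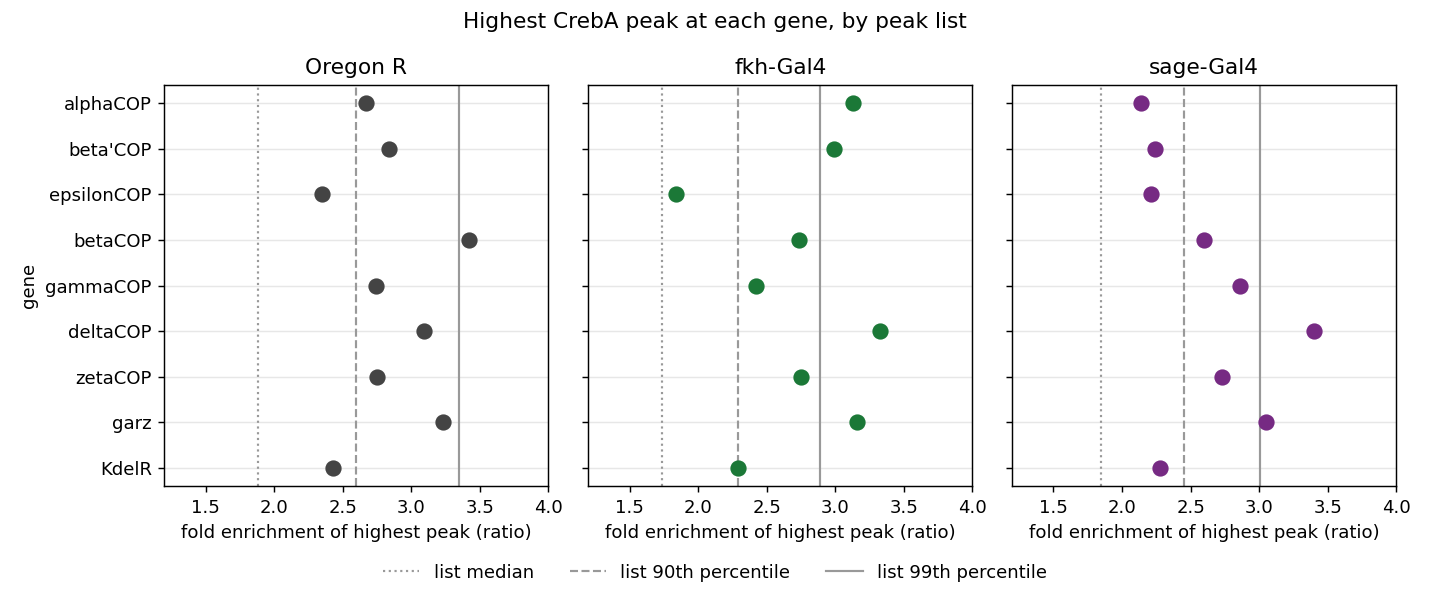
Fold enrichment of the highest peak (x axis, the authors' ratio) at each of the 9 genes (y axis), 1 panel per peak list; each point is 1 peak of 1 library, and vertical lines mark the list's median, 90th and 99th percentiles. Every point lies above its list's median, deltaCOP and garz stand among the 3 highest genes in each panel, and epsilonCOP is the lowest in Oregon R (2.35) and fkh-Gal4 (1.84).

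The adaptor-like part of the coat consists of betaCOP, gammaCOP, deltaCOP and zetaCOP. The deltaCOP gene (CG14813, chrX:1859141-1861790) encodes the medium-sized subunit of this part, and had folds of 3.09 in Oregon R, 3.33 in fkh-Gal4 and 3.40 in sage-Gal4. These were rank 334, rank 7 and rank 8 of their lists. It was the highest of the 9 genes in both driver lists and the third in Oregon R. The fkh-Gal4 peak ran over chrX:1859849-1862759, so that it covered the higher end of deltaCOP, the gap of 218 bp beyond it and part of Gcna. The summits in the 3 lists lay 67, 67 and 79 bp inside that end, within 12 bp of each other.

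The betaCOP gene (CG6223, chrX:18381549-18385242) encodes a large subunit. Its folds were 3.42 in Oregon R, 2.74 in fkh-Gal4 and 2.60 in sage-Gal4, at ranks 120, 120 and 480. The Oregon R value was the highest of the 9 genes in that list. Summits stood at its higher end, 63 bp outside the gene in Oregon R, 93 bp inside it in fkh-Gal4 and 26 bp outside it in sage-Gal4. The next protein-coding gene in that direction, Tsf1, which encodes transferrin, has its nearer end 1841 bp away. These summits thus have no close protein-coding neighbour. A lower peak within the gene was found in Oregon R (fold 1.70) and fkh-Gal4 (1.80), with summits 1837 and 1766 bp from the higher end.

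The gammaCOP gene (CG1528, chr3R:31572143-31575707) encodes the other large subunit. It had folds of 2.74, 2.42 and 2.86 in Oregon R, fkh-Gal4 and sage-Gal4, at ranks 945, 395 and 174. Its place among the 9 genes was therefore the sixth, the seventh and the third. Summits lay at the lower end, 106 and 85 bp outside the gene in Oregon R and fkh-Gal4 and 67 bp inside it in sage-Gal4. The nearest protein-coding gene on that side is 5977 bp away. A long non-coding RNA gene, CR46119, has an end 756, 777 and 929 bp from the summits in Oregon R, fkh-Gal4 and sage-Gal4. At its other end, 127 bp from pygo, which encodes a Wnt pathway coactivator, no list had a summit within 1 kb.

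The small subunit is encoded by zetaCOP (CG3948, chr3L:16671664-16673555). Its folds were 2.75 in Oregon R, 2.75 in fkh-Gal4 and 2.73 in sage-Gal4, at ranks 932, 112 and 293. Its highest peak was the narrowest among the highest peaks of the 9 genes in every list, with widths of 1134, 698 and 900 bp. The summits were at the higher end, 15 bp outside the gene in Oregon R and 98 and 86 bp inside it with the drivers. Its lower end had no summit within 1 kb in any list.

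The outer part consists of alphaCOP, beta'COP and epsilonCOP. Both alphaCOP and beta'COP carry the propeller domains that recognise dilysine signals on returning membrane proteins. The alphaCOP gene (CG7961, chr3L:1641066-1645199) had folds of 2.67 in Oregon R, 3.13 in fkh-Gal4 and 2.14 in sage-Gal4, at ranks 1184, 27 and 1981. It was thus the third of the 9 genes in fkh-Gal4, where its −log10 q of 29.6 ranked 4 in the list, and the last in sage-Gal4. The summits lay at the higher end, 63 bp inside the gene in Oregon R, 136 bp outside in fkh-Gal4 and 21 bp outside in sage-Gal4. The Oregon R peak was 4042 bp wide and also covered CG13919 and CG17249 beyond that end.

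At beta'COP (CG6699, chr2L:13378902-13382382) the folds were 2.84 in Oregon R, 2.99 in fkh-Gal4 and 2.24 in sage-Gal4, at ranks 720, 51 and 1510. As with alphaCOP, its place among the 9 genes was high in fkh-Gal4 (the fourth) and low in sage-Gal4 (the seventh). The summits of the 3 lists were the closest of any member, 74, 72 and 71 bp outside the lower end, a spread of 3 bp. Only Oregon R had peaks at its other end, near loqs, which encodes an RNA-binding partner of Dicer, with folds of 1.53 and 1.97.

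The epsilonCOP gene (CG9543, chr2L:6489090-6490194), whose product holds on to the alphaCOP protein in the coat, is the shortest member at 1105 bp. Its folds were 2.35, 1.84 and 2.21 in Oregon R, fkh-Gal4 and sage-Gal4, at ranks 2752, 2343 and 1650. It was the last of the 9 genes in Oregon R and fkh-Gal4 and the eighth in sage-Gal4. Summits again lay at 1 end, the lower one, 62 and 28 bp outside the gene in Oregon R and fkh-Gal4 and 44 bp inside in sage-Gal4. In Oregon R and fkh-Gal4 the peak covered the whole gene, with widths of 3051 and 1716 bp. Another gene, Phf5a, overlaps the higher end of epsilonCOP. The Oregon R peak covered all of Phf5a and the fkh-Gal4 peak part of it.

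By subcomplex, the 3 outer genes had folds of 2.14 to 2.24 in sage-Gal4 and the 4 adaptor-like genes 2.60 to 3.40, with no overlap. In fkh-Gal4 the ranges overlapped, at 1.84 to 3.13 for the outer and 2.42 to 3.33 for the adaptor-like genes. In Oregon R they were 2.35 to 2.84 and 2.74 to 3.42. The split was noticed after the values were seen, rests on 3 and 4 genes of 1 library each, and was not tested.

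The garz gene (CG8487, chr2R:12326360-12333860) encodes the Golgi exchange factor that activates Arf for COPI recruitment, and is the longest member at 7501 bp. Its folds were 3.23 in Oregon R, 3.16 in fkh-Gal4 and 3.05 in sage-Gal4, at ranks 202, 21 and 63. It came second of the 9 genes in every list. All 3 summits lay at the lower end, 125 and 126 bp outside the gene in Oregon R and sage-Gal4 and 125 bp inside it in fkh-Gal4. Their spread of 251 bp was the widest of the members. The gap between garz and CG8841 is 101 bp, and the Oregon R and sage-Gal4 summits lay inside CG8841, 23 and 24 bp from its end and so nearer to CG8841 than to garz.

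KdelR (CG5183, chr2L:10426887-10428632) encodes the receptor for the retrieval signal of soluble ER proteins. Its folds of 2.43 in Oregon R, 2.29 in fkh-Gal4 and 2.28 in sage-Gal4 had ranks 2287, 646 and 1350. It held the eighth, the eighth and the sixth place among the 9 genes, so that it and epsilonCOP were the 2 lowest in Oregon R and fkh-Gal4. Its summits lay at the lower end, 64 and 29 bp inside the gene in Oregon R and fkh-Gal4 and 8 bp outside in sage-Gal4. The Oregon R peak, at 4756 bp the widest of the members, reached across SmB, which encodes a splicing factor subunit, into Wdfy2.

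**Figure D2:**
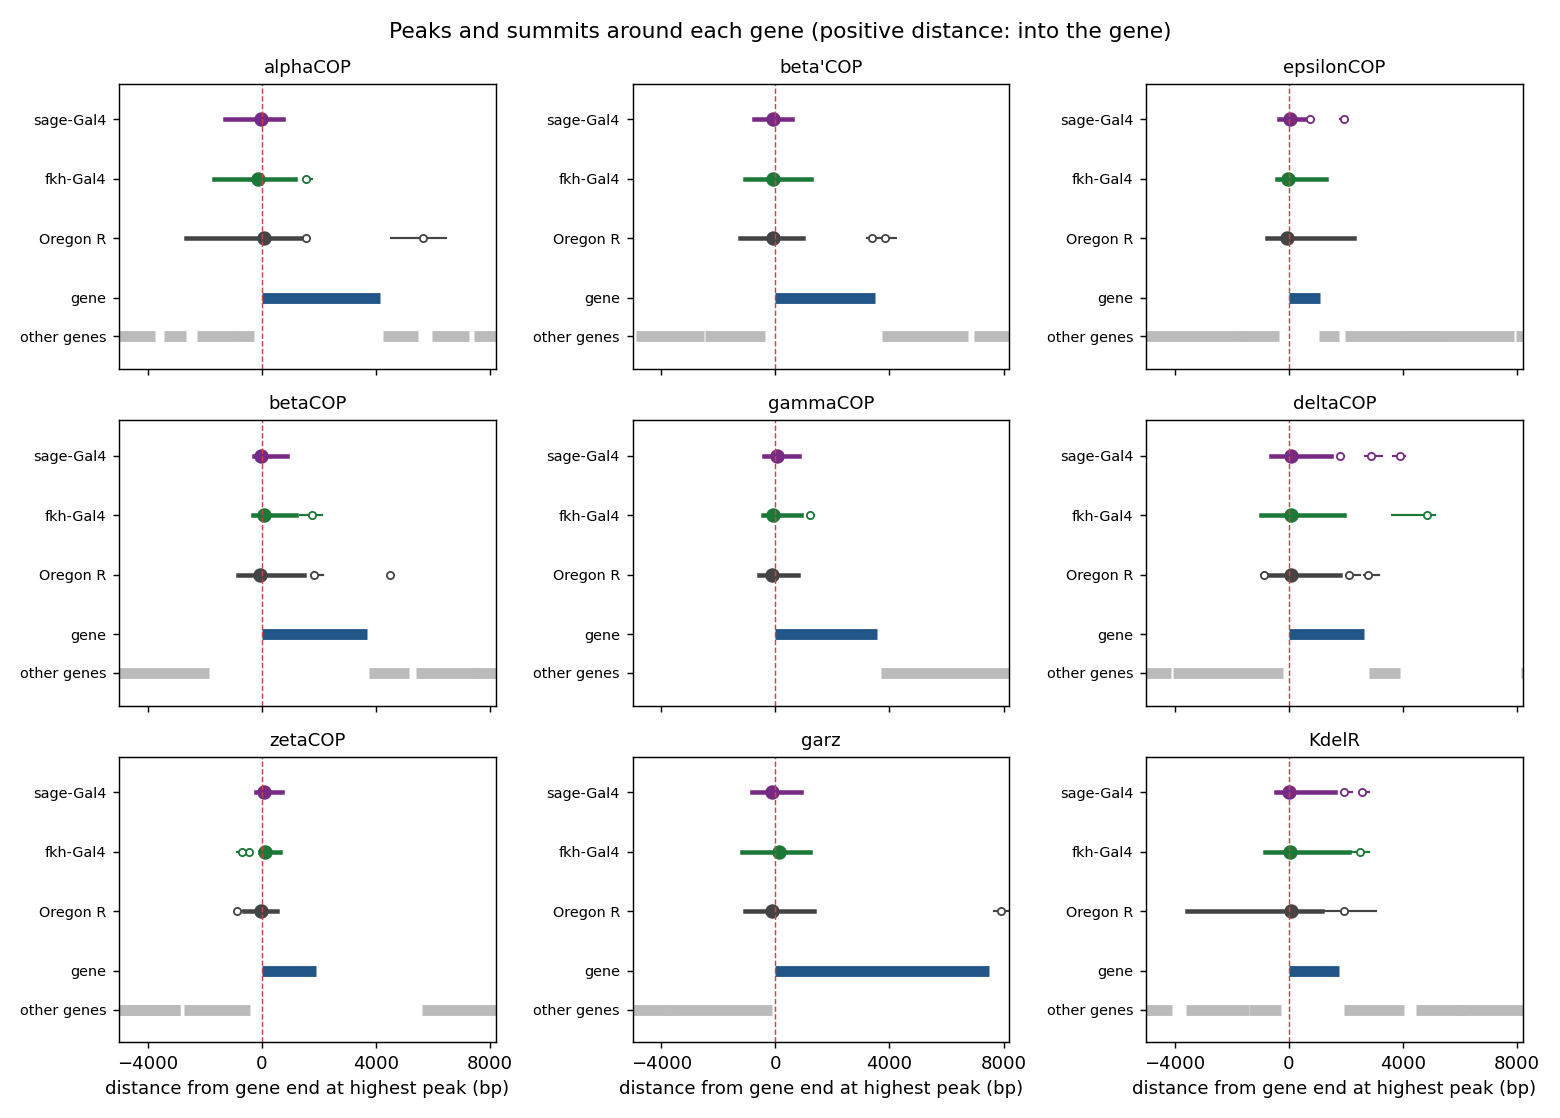
Peaks around each of the 9 genes, with distance in bp from the gene end nearest to the highest summits on the x axis and positive values running into the gene; horizontal lines are peaks, filled points the summits of the highest peaks, open points those of lower peaks, the blue bar the gene and grey bars other protein-coding genes. In every panel the filled points of the 3 lists stand together at 1 end of the gene, and the open points stand apart from them. At zetaCOP all open points lie beyond that same end, as does an Oregon R point at deltaCOP.

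Across the 9 genes and 3 lists, all 27 highest summits thus lay within 136 bp of a gene end, and at each gene all 3 lists used the same end. This was the lower end at 5 genes and the higher end at 4. The median distance of the summit to the nearer end was 64 bp in Oregon R, 85 bp in fkh-Gal4 and 67 bp in sage-Gal4, compared with 260, 526 and 408 bp for all protein-coding genes with a peak. Summits within 150 bp of the same end in all 3 lists were found at 9 of 9 members and at 3.79% of all protein-coding genes. That share is 528 of 13946 and includes genes without peaks. Only 4361 genes held a peak in every list. The 150 bp for this count were set after the members' values were seen.

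The position relative to the end itself varied. Of the 27 summits, 15 lay outside the member and 12 inside it. Only beta'COP had all 3 summits outside and only deltaCOP had all 3 inside. The highest peaks of the 3 lists overlapped each other at all 9 genes, compared with 18.8% of all protein-coding genes. That is 2616 of 13946 genes, of which 4361 held a peak in every list. Among genes with such an overlap, the median spread of the 3 summits was 113 bp for the members and 154 bp for all, and it was at most 150 bp at 5 of the 9 members and at 49.3% of all such genes. The share of members with close summits was thus near that of other genes.

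**Figure D3:**
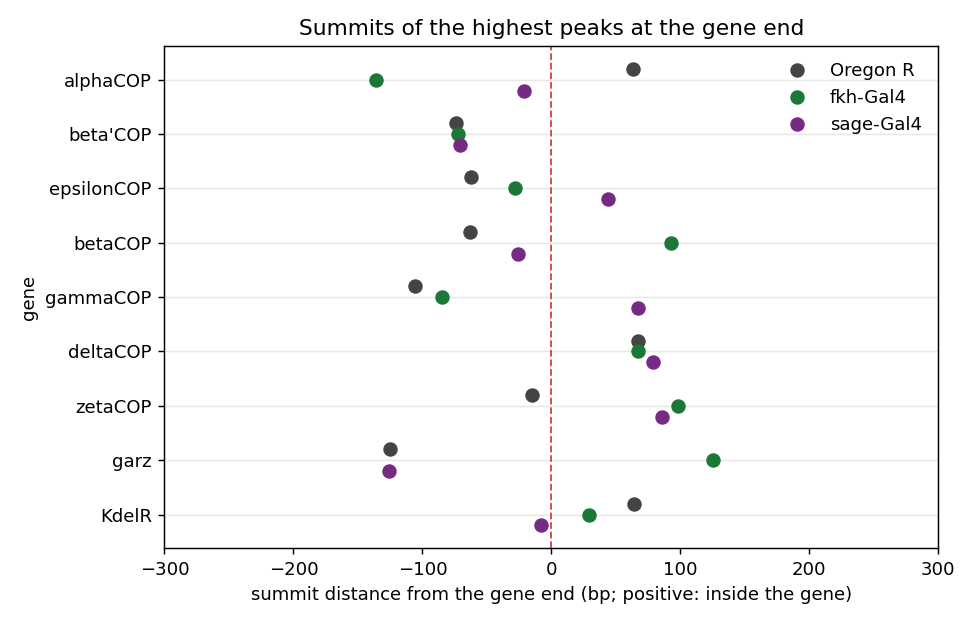
Distance of the highest peak's summit from the gene end (x axis in bp, positive inside the gene, dashed line the end) for each of the 9 genes (y axis), coloured by list with 1 point per list. All points lie within 136 bp of the end; beta'COP has all 3 outside it, within 3 bp, and at garz the fkh-Gal4 point is 251 bp from that of sage-Gal4.

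Most of these gene ends are shared with a close neighbour. At 7 of the 9 genes another protein-coding gene has an end within 1 kb of the highest summit, in each list. This is near the share for all genes with a peak, which was 72.9% in Oregon R, 68.1% in fkh-Gal4 and 69.5% in sage-Gal4, so it says nothing particular of the members. The gaps between the gene pairs were 101 bp for garz and CG8841, 218 bp for deltaCOP and Gcna, which encodes a protein of germ cell nuclei, and 259 bp for KdelR and SmB. They were 267 bp for alphaCOP and CG13919, 333 bp for epsilonCOP and KFase, a kynurenine formamidase gene, 363 bp for beta'COP and CG9302, and 408 bp for zetaCOP and CG13032. Without strand, it cannot be said which pairs share a promoter and which are arranged otherwise.

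At 8 of 9 genes in each list the summit was nearer to the member than to any neighbour. The exceptions were garz in Oregon R and sage-Gal4, given above, and alphaCOP in fkh-Gal4, where the summit lay 136 bp from alphaCOP and 132 bp from CG13919. Peaks carry no record of the gene they act on, and for these 7 pairs the data do not tell the member from its neighbour. At betaCOP and gammaCOP no such protein-coding neighbour exists, and their folds were 2.42 to 3.42 over the 3 lists. The long non-coding RNA gene CR46119 does have an end within 1 kb of the gammaCOP summits.

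At the gene end away from the highest summit, no summit lay within 1 kb at 4 of 9 genes in Oregon R, against 66.0% of all genes with a peak. This held at 8 of 9 genes in fkh-Gal4 (all genes 81.1%) and 6 of 9 in sage-Gal4 (all genes 79.5%). It held in all 3 lists at alphaCOP, gammaCOP and zetaCOP, which is 3 of 9 genes, against 50.7% of all genes with a peak in every list. In total the windows held 21 peaks in Oregon R, 16 in fkh-Gal4 and 16 in sage-Gal4, of which 12, 7 and 7 were not the highest of their gene. Their folds ran from 1.42 to 2.13 in Oregon R, 1.42 to 1.84 in fkh-Gal4 and 1.40 to 2.01 in sage-Gal4. The number of peaks per gene, on average 2.33, 1.78 and 1.78, was close to that of all genes with a peak (2.19, 2.04 and 1.97).

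The deltaCOP window was the richest, with 10 peaks over the 3 lists. Its second cluster lay at the lower end, 169 bp from Lamtor5, which encodes a subunit of a lysosomal signalling complex. Summits there stood 135 bp outside deltaCOP in Oregon R (fold 1.76) and 249 bp outside in sage-Gal4 (2.01). In fkh-Gal4 no summit lay within 1 kb of that end. A wide fkh-Gal4 peak (fold 1.68) reached into the window from that side, with its summit 2187 bp outside deltaCOP. The KdelR window held 7 peaks, and a second group lay beyond its higher end, near CG5188. The highest there was an Oregon R peak with a fold of 2.13, whose summit was 190 bp outside KdelR. Beyond the far end of garz, a weak Oregon R peak (fold 1.53) covered chr2R:12334011-12334510, over a histidine tRNA gene, and neither driver list had a peak there.

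The highest peaks of the members were also wide. Their median width was 2435 bp in Oregon R, 2328 bp in fkh-Gal4 and 1327 bp in sage-Gal4, compared with 997, 684 and 555 bp for the highest peaks of all genes with a peak. Widths reached from 698 bp, at zetaCOP in fkh-Gal4, to 4756 bp, at KdelR in Oregon R. A wide peak is more likely to touch a window of 1 kb, although here all 27 summits themselves lay inside the windows.

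Other genes of the pathway were taken from a list of 15 symbols, of which 13 matched a gene. The list holds Arf GTPases and their regulators, COPI-associated proteins, and the tether and SNAREs that receive COPI vesicles at the ER. All 13 held a peak in every list (all genes 31.3%). Peaks among the 1000 highest by fold were found at 4 of 13 in Oregon R (all genes 9.95%). They were found at 7 of 13 in fkh-Gal4 (10.1%), 6 of 13 in sage-Gal4 (9.23%) and 3 of 13 in all 3 lists (2.16%). A −log10 q of at least 10 was reached at 13, 7 and 8 of 13 genes (all genes 50.7%, 11.0% and 14.6%). In all 3 lists it was reached at 6 of 13 (8.26%). The median best rank of the 13 genes was 12.4% in Oregon R, 14.3% in fkh-Gal4 and 17.6% in sage-Gal4. This lies between the members and all genes with a peak in each list. The median width of their highest peaks was 1390 bp in Oregon R, 1538 bp in fkh-Gal4 and 984 bp in sage-Gal4. These widths also lay between those of the members and of all genes with a peak.

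Values are given for the 4 of these genes that were best in their worst rank over the 3 lists. Gmap, a golgin gene, had folds of 3.57 in Oregon R, 2.48 in fkh-Gal4 and 2.77 in sage-Gal4. Its driver summits lay 10084 and 10124 bp inside a gene of 24302 bp, while the Oregon R summit was 129 bp outside its lower end. ArfGAP1, which switches Arf off on the coated vesicle, had folds of 2.74, 2.24 and 2.98, with summits 97, 221 and 152 bp inside its higher end. Arf1, the GTPase itself, had folds of 2.53, 2.60 and 2.46, with summits 84, 117 and 54 bp inside its higher end. Rint1, a subunit of the ER tether, had folds of 2.57, 2.20 and 2.49.

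Over the 13 genes, the lowest place that a gene's highest peak took in any list ran from 4.97% to 85.9%. In all 3 lists the summits lay within 150 bp of the same gene end at 7 of the 13 genes (all genes 3.79%). The highest peaks overlapped each other at 10 of 13 (all genes 18.8%). The coat subunits, garz and KdelR had both at 9 of 9, and the difference between the lists of genes was not tested.

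**Figure D4:**
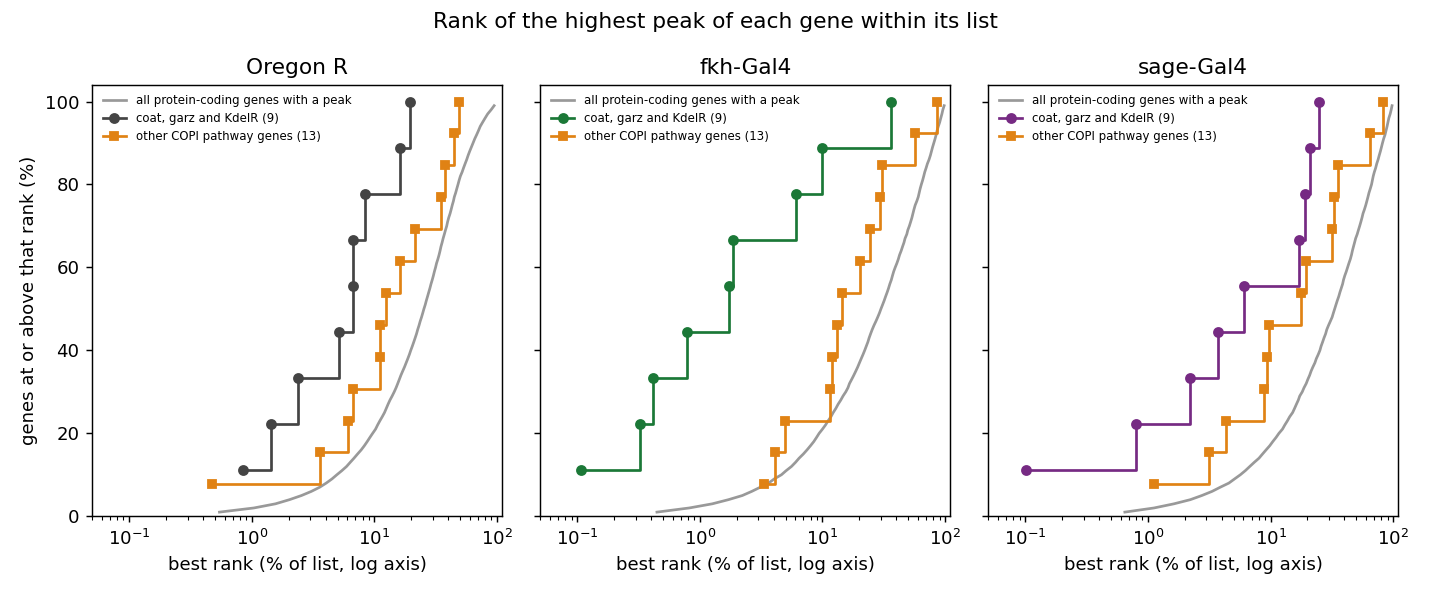
Rank of each gene's highest peak as a percent of its list (x axis, log scale, left is higher) against the cumulative percent of genes (y axis), 1 panel per list; circles are the 9 genes, squares 13 other COPI pathway genes and the grey line all protein-coding genes with a peak. The circles lie left of the grey line throughout, with medians of 6.64%, 1.73% and 6.06%, compared with 25.3%, 30.0% and 33.3% for the grey line.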

How the data were processed

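Chromatin of 3 immunoprecipitated and 3 input libraries was analysed through the authors' 3 peak lists. The labels give an 8 h collection of embryos, 11 h of aging, crosslinking in 1.8% formaldehyde and 2 collections. No source used here says whether these were pooled. Per the submitters' processing notes, BWA, MACS2 2.1.0.20140616 and dm6 were used. Neither the settings nor the use of the inputs is stated there.

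The deposited fold enrichment (a ratio), −log10 p and −log10 q are the authors' values at each summit. The deposited score was not used. The deposited summit offset is an other unit, in bp. The lowest −log10 q was 1.31, 1.30 and 1.31 in Oregon R, fkh-Gal4 and sage-Gal4, from the files.

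Genes came from a RefSeq table of the release 6 assembly, the assembly of dm6. Overlap meant at least 1 bp, and ties in fold went to the higher −log10 q. The members and lists were chosen with earlier results of these data known. Text names every member, each gene beside a member's highest summit, and the 4 pathway genes best in their worst rank; other neighbours were named after their peaks were seen. Of the pathway symbols, 2 matched no gene. Arf79F, Arf102F and zw10 are listed in the table as Arf1, Arf4 and Zw10. DNA letters and proteins were not analysed here. No test was run. Intervals of 95% (exact Clopper-Pearson, counting error over peaks only) served to judge whether a rank moved. The assignment of peaks was tested on simulated data. Scripts ran in Python 3.11.15 (pandas 2.3.3, numpy 2.4.6, matplotlib 3.10.9, scipy 1.17.1).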

Additional observations from a re-analysis of the deposited data

How the results depend on the processing

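No paired analysis was possible because each group has 1 library and the labels carry no replicate numbers. Windows of the gene span alone, 500 bp and 2 kb, and summits in place of overlaps, left all 9 genes with a peak in each list and the median best ranks as reported. Of all genes, 64.7%, 30.4% and 39.4% had a peak at 500 bp in Oregon R, fkh-Gal4 and sage-Gal4. The shares were 72.5%, 38.5% and 48.8% at 2 kb, and 64.7%, 31.7% and 41.4% by summits. With each peak given to the gene of the nearest end only, garz lost its sage-Gal4 peak. In that list 8 of 9 remained, against 32.1% of all genes. All 9 remained in Oregon R (all genes 52.1%) and in fkh-Gal4 (24.5%). The highest summits of garz in Oregon R and of alphaCOP in fkh-Gal4 were nearer to a neighbour, however. These genes kept only lower peaks there, with folds of 1.53 and 1.61. Ranking by −log10 q gave medians of 3.67% in Oregon R and 1.24% in fkh-Gal4 (6.29% in sage-Gal4), and the highest peak of each gene was the same. Peaks at the 9 genes fell from 21 to 11 in Oregon R, 16 to 8 in fkh-Gal4 and 16 to 9 in sage-Gal4 with a −log10 q of at least 10. With the 1000 highest peaks they fell to 6, 8 and 5, and the genes with a sage-Gal4 peak to 5; both filters keep fewer peaks by construction. The genes shared by all lists fell from 9 to 5 when summits had to lie within 150 bp, and to 7 with a reciprocal overlap of 50%, while the share of all genes fell from 31.3% to 9.24% and 6.7%. A summit within 1000 bp of a gene end, chosen after seeing the data, gave 9 of 9 in each list, against 62.4% of all genes in Oregon R, 28.4% in fkh-Gal4 and 38.9% in sage-Gal4. The planned search for DNA letters and for ligands of the KDEL receptor was not run. Depth is unknown, and 1 library a group gives no measure of spread.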

Other observations

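With peaks ranked by −log10 q in place of fold, the places of the 9 genes in the 2 driver lists were as follows. The alphaCOP peak was rank 4 of 6464 in fkh-Gal4 (0.0619%) and rank 906 of 7916 in sage-Gal4 (11.4%). The beta'COP peak stood at 0.278% in fkh-Gal4 and 10.5% in sage-Gal4, and the betaCOP peak at 1.24% and 6.29%. The garz peak stood at 0.0774% and 0.493%, deltaCOP at 0.0928% and 0.152%, zetaCOP at 1.56% and 2.56%, and KdelR at 3.94% and 7.59%. Those 7 genes stood higher in the fkh-Gal4 list. The same median over all genes with a peak was also higher there, at 27.2% in fkh-Gal4 and 32.0% in sage-Gal4. The share of all genes that stood higher in fkh-Gal4 was not counted. By fold, deltaCOP went the other way, at 0.108% in fkh-Gal4 and 0.101% in sage-Gal4. The gammaCOP peak, at 4.10% and 2.22%, and the epsilonCOP peak, at 21.1% and 15.0%, stood higher in the sage-Gal4 list. Each value comes from 1 library, the lists differ in length, and the differences were not tested.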
